A study of Mus musculus with 45 samples.

Results

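Hox genes were followed in 45 expression arrays of mouse induced pluripotent stem cell (iPSC) lines, cells reprogrammed to a state like that of embryonic stem cells. The members were all probe sets whose annotated gene symbol was Hoxa, Hoxb, Hoxc or Hoxd with a number. They numbered 35 of the 22690 probe sets on 33 arrays, for 33 of the 39 Hox genes listed by RefSeq, and 40 of 22690 on the 12 other arrays, for 34 genes. The other Hox genes were not analysed here, and Hoxc6 was analysed on the 12 arrays alone.

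The lines were made with a secondary reprogramming system and fell into 15 groups of 3 clones. Their cells of origin were granulocytes of the bone marrow (Gra, measured at passages 4 and 16) and precursors of skeletal muscle (SMP, passage 6) in mouse 1. In mouse 2 they were fibroblasts of the tail tip (TTF), splenic B cells (B), T cells (T) and granulocytes, each measured at passages 4, 10 and 16. All cells had been grown with serum and LIF on irradiated mouse embryonic fibroblasts, most of which a preplating step removes before RNA is taken. Strain, age and genotype are not given in the sources used here. The clones of each comparison came from 1 mouse, or from 1 mouse on each side, so the p-values speak to differences among clones, with animals not replicated. Passages 4, 6 and 16 were measured together on 33 arrays. Passage 10 was measured on 12 arrays of another platform and is described on its own scale, since the authors normalized the tables apart.

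Hox genes encode homeodomain transcription factors that give cells their position along the head to tail axis. They lie in 4 clusters, and genes at the same place in different clusters, called paralogues, carry the same number. Low numbers are switched on first and towards the head, and high numbers later and towards the tail. In pluripotent cells the clusters are held nearly silent by Polycomb proteins while carrying active marks as well, and retinoic acid, Wnt and Cdx factors open them as cells differentiate. Fibroblasts keep the Hox pattern of the body site they came from, and blood progenitors express many Hoxa and Hoxb genes.

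Most Hox probe sets were dim. All values are log2 intensities made by the authors with RMA, a method that corrects background, equalizes arrays and summarizes the probes of a set. On the 33 arrays the mean of 22 of 35 Hox probe sets was below 4.46, the lower quartile of all probe sets, 12 lay between this and the median of 6.52, and Hoxb9 alone was above it, with 6.54. At passage 10, 17 of 40 were below the lower quartile of 4.83, 22 lay between this and the median of 7.03, and Hoxc9 was at the median with 7.03. The pluripotency factors Pou5f1, Nanog and Sox2, set beside this as a check of the label, read 10.2 to 12.3 over the 33 arrays and 12.6 to 13.3 over the 12. Markers of granulocytes, B cells and T cells were near the level of the Hox probe sets, with list means of 3.78 to 5.17, 4.29 to 5.20 and 3.75 to 5.09 over the 33 arrays, and no marker of these 3 lists had a mean above the median.

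One array stood apart before any comparison was made. Clone 3 of the mouse 2 Gra lines at passage 16 had a lower quartile of 4.98, against 4.34 to 4.69 in the other 32 arrays, and a mean correlation of 0.921 with the other clones of its group. Its Hox mean was 5.21, and those of clone 3 of the T lines at passage 16 and clone 2 of the TTF lines at passage 4, which followed in lower quartile (4.69 and 4.57), were 4.58 and 4.6. The other 30 arrays had Hox means from 4.12 to 4.42. The lists of granulocyte, B cell, T cell and muscle markers were all highest on the same array, with means of 5.17, 5.20, 5.09 and 5.685. The list of pluripotency markers was lowest there, with a mean of 10.40. Counts of called Hox probe sets on the 33 arrays are therefore given with and without these 3 arrays, an alternative chosen after seeing the data.

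**Figure D1:**
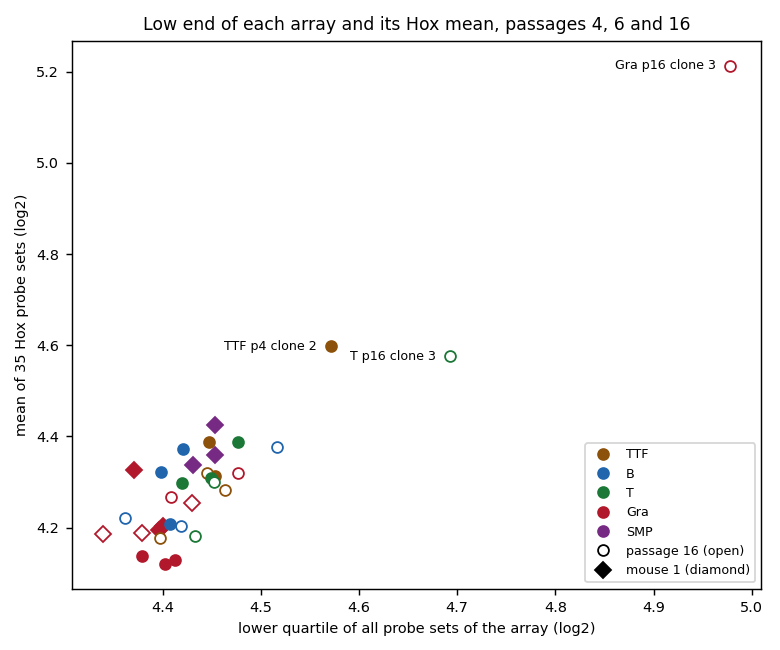
Lower quartile of all probe sets of an array (horizontal, log2) against the mean of its 35 Hox probe sets (vertical, log2), 1 point per array of passages 4, 6 and 16, coloured by origin, open for passage 16 and as diamonds for mouse 1. Clone 3 of the Gra lines at passage 16 stands alone at 4.98 and 5.21, and the Hox means of the 30 arrays that carry no name lie between 4.12 and 4.42.

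Promoter windows, 250 bases before to 50 after the start of a gene (RefSeq, GRCm38.p6, matched by symbol), were at hand for 22 Hox genes, in 24 windows. They are shown for 4 genes that differed among the origins and sit at different places in their clusters: Hoxd9 (chr2:74697513-74697812, plus strand), Hoxd1 (chr2:74762730-74763029, plus strand), Hoxa5 (chr6:52204538-52204837, minus strand) and Hoxb8 (chr11:96281655-96281954, plus strand). Capitals mark matches on either strand to TATAAA, the TATA box, and to TTTATG, a Cdx motif. They also mark TGATNNAT, a joint motif of Pbx and Hox proteins, and AGGTCA, the unit that retinoic acid receptors bind.
Hoxd9: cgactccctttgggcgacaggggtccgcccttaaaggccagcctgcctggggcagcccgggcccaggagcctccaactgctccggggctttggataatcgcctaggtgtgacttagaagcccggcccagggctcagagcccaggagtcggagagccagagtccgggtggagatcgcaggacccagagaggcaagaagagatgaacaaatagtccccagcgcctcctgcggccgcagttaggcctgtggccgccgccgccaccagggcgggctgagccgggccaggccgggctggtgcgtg
Hoxd1: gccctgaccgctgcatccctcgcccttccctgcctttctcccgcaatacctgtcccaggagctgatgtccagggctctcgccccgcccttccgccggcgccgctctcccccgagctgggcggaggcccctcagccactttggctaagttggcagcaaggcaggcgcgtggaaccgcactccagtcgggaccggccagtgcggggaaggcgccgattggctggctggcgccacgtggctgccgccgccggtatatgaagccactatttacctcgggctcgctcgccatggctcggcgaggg
Hoxa5: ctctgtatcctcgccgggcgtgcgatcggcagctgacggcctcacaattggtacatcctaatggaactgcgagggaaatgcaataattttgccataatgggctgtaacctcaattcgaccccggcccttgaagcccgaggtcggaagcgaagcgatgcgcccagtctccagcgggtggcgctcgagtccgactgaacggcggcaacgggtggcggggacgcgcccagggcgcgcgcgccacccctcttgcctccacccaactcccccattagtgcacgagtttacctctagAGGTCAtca
Hoxb8: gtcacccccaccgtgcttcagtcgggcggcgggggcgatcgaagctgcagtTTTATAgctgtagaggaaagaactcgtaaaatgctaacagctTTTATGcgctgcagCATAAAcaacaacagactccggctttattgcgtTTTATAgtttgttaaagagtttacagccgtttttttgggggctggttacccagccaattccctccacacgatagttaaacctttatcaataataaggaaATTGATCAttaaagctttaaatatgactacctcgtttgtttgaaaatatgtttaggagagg
Hoxb8 held 2 matches to TATAAA, 2 to TTTATG and 1 to TGATNNAT, and Hoxa5 held 1 to AGGTCA, while the windows of Hoxd9 and Hoxd1 held none. Over all 24 Hox windows, TATAAA was found in 4, TTTATG in 5, TGATNNAT in 4 and AGGTCA in 7. Over 32851 promoters of the same length the shares were 13.6%, 11.9%, 8.85% and 16.3%. The Hox windows had a median of 14.5 CpG dinucleotides, with 45 in Hoxa13 as the highest, against a median of 7 over all promoters. A match is a description of these letters and not a binding site.

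At passage 4, the Hox probe sets that differed most among lines of mouse 2 from different cells were Hoxb9 and Hoxc13. Both were highest in lines from tail tip fibroblasts and lowest in lines from granulocytes. Hoxb13 did not have this order, with means of 4.73 in TTF, 4.74 in Gra, 4.87 in T and 5.38 in B lines. A moderated F-test in limma over the 4 origins, adjusted over all probe sets (Benjamini-Hochberg, threshold 0.05), called 7 of 35 Hox probe sets, where 37.9% of all probe sets were called. The 7 were Hoxb9, Hoxc13, Hoxd9, Hoxc8, Hoxd1, Hoxb8 and Hoxb5. None was a Hoxa probe set. Each origin was then set against the mean of the other 3, comparisons that share their arrays.

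Hoxb9, a posterior gene needed for patterning of the ribs and sternum, read 7.25, 7.88 and 8.10 in the TTF lines, 6.22, 6.57 and 6.74 in the B lines, 6.94, 6.83 and 6.66 in the T lines and 5.78, 6.48 and 5.91 in the Gra lines. All TTF lines lay above all others. The TTF difference was 1.28 (SE 0.20, a 2.43-fold higher level, adjusted p = 5.9e-05), and the Gra difference was -0.96 (SE 0.20, adjusted p = 0.00079).

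Hoxc13, the last gene of its cluster, which acts in hair, nail and tail, read 6.11, 6.34 and 7.2 in the TTF lines, 6.10, 6.36 and 6.77 in the T lines, 4.77, 5.14 and 6.13 in the B lines and 5.15, 4.82 and 5.01 in the Gra lines. TTF and T lines were high together, B lines were spread widely and Gra lines were low. Its difference was 0.96 in TTF (SE 0.26, adjusted p = 0.01), 0.78 in T (SE 0.26, adjusted p = 0.038) and -1.11 in Gra (SE 0.26, adjusted p = 0.0029).

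Hoxd9, a posterior gene of limb and lumbar spine, read 6.74, 5.90 and 7.07 in the B lines, 6.15, 5.95 and 6.50 in the TTF lines, 6.31, 6.08 and 5.60 in the T lines and 5.59, 5.27 and 5.18 in the Gra lines. All Gra lines were below all others. The B difference was 0.72 (SE 0.22, adjusted p = 0.038) and the Gra difference was -0.91 (SE 0.22, adjusted p = 0.0039).

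Among the middle paralogues, Hoxc8, which patterns the thorax, read 5.24, 5.12 and 4.37 in the TTF lines, 4.78, 4.35 and 4.02 in the B lines, 4.64, 4.83 and 4.08 in the T lines and 3.76, 3.66 and 4.17 in the Gra lines. The highest Gra line overlapped the lowest B and T lines, and the Gra difference was -0.74 (SE 0.25, adjusted p = 0.033). Hoxb8, a gene of the thoracic spine that is also active in myeloid progenitors, read 4.27, 3.65 and 4.03 in the TTF lines, 3.33, 3.47 and 3.40 in the B lines, 3.56, 3.55 and 3.71 in the T lines and 3.18, 3.28 and 3.06 in the Gra lines. It was higher in TTF lines by 0.59 (SE 0.14, adjusted p = 0.0034), and its Gra difference was -0.49 (SE 0.14, adjusted p = 0.011), with every Gra line below every other line. In the passage 10 annotation the same probe set, 1452493_s_at, carries both Hoxb8 and Hoxb7, so these genes cannot be told apart by it.

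Hoxb5 was low in lines from granulocytes as well, with 4.16, 3.98 and 4.02 against 4.42, 4.77 and 4.42 in TTF, 4.61, 4.13 and 4.27 in B and 4.72, 4.47 and 4.67 in T lines, a Gra difference of -0.45 (SE 0.14, adjusted p = 0.023), with clone 2 of the B lines among the Gra values. Hoxd1, an anterior gene at the other end of its cluster from Hoxd9 to Hoxd13, followed another order. It read 4.04, 3.25 and 4.21 in the T lines, 3.42, 2.93 and 3.07 in TTF, 3.16, 2.82 and 2.95 in B and 3.08, 2.90 and 2.93 in Gra lines. Clones 1 and 3 of the T lines were above all lines of the other origins, and the T difference was 0.81 (SE 0.15, adjusted p = 0.00054).

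Counted by origin, 3 Hox probe sets were higher in TTF lines and none lower, where 19.6% of all probe sets were called. In B lines 1 was higher and none lower, where 9.67% were called and 4.49% were higher. In T lines 2 were higher and none lower, where 17.4% were called and 10.3% were higher. After quantile normalization T lines had 1 higher and 1 lower. In Gra lines 6 were lower and none higher, where 21.5% were called and 11.8% were lower. The median Gra difference was -0.17 over 35 Hox probe sets, of which 27 were below 0, against -0.02 over all probe sets. The 6 lower in Gra lines were 3 Hoxb, 2 Hoxc and 1 Hoxd probe set, with none in paralogues 1 to 3, 3 in paralogues 4 to 8 and 3 in paralogues 9 to 13. In bulk samples fewer cells that express a gene and less RNA in each cell cannot be told apart.

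Single arrays carried some of these calls. The shares of all probe sets above belong to the fit of all arrays. The counts of other fits below have no share beside them and show only which calls were gained or lost. Without the 3 arrays of highest lower quartile the F-test called 10, of which 6 were among the 7. By origin there were then 10 calls in Gra lines, 8 lower and 2 higher, 5 in T lines, 4 higher and 1 lower, 2 in B lines and 3 in TTF lines, each holding all of that origin's calls in the fit of all arrays. In that test the call of Hoxc8 was lost in 17 of 33 fits without 1 array, with adjusted p up to 0.16, and that of Hoxb5 in 6, up to 0.12, while the other 5 kept theirs in every such fit. In the comparisons by origin, the call of Hoxc13 in TTF was lost without TTF clone 3 (adjusted p = 0.12), that of Hoxc13 in T without any of 7 arrays (up to 0.23), that of Hoxd9 in B without any of 6 (up to 0.3) and that of Hoxb8 in Gra without Gra clone 3 (0.068). Hoxb5 in Gra was lost without any 1 of the 3 Gra clones (up to 0.11) and Hoxc8 in Gra without any of 6 arrays (up to 0.17).

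**Figure D2:**
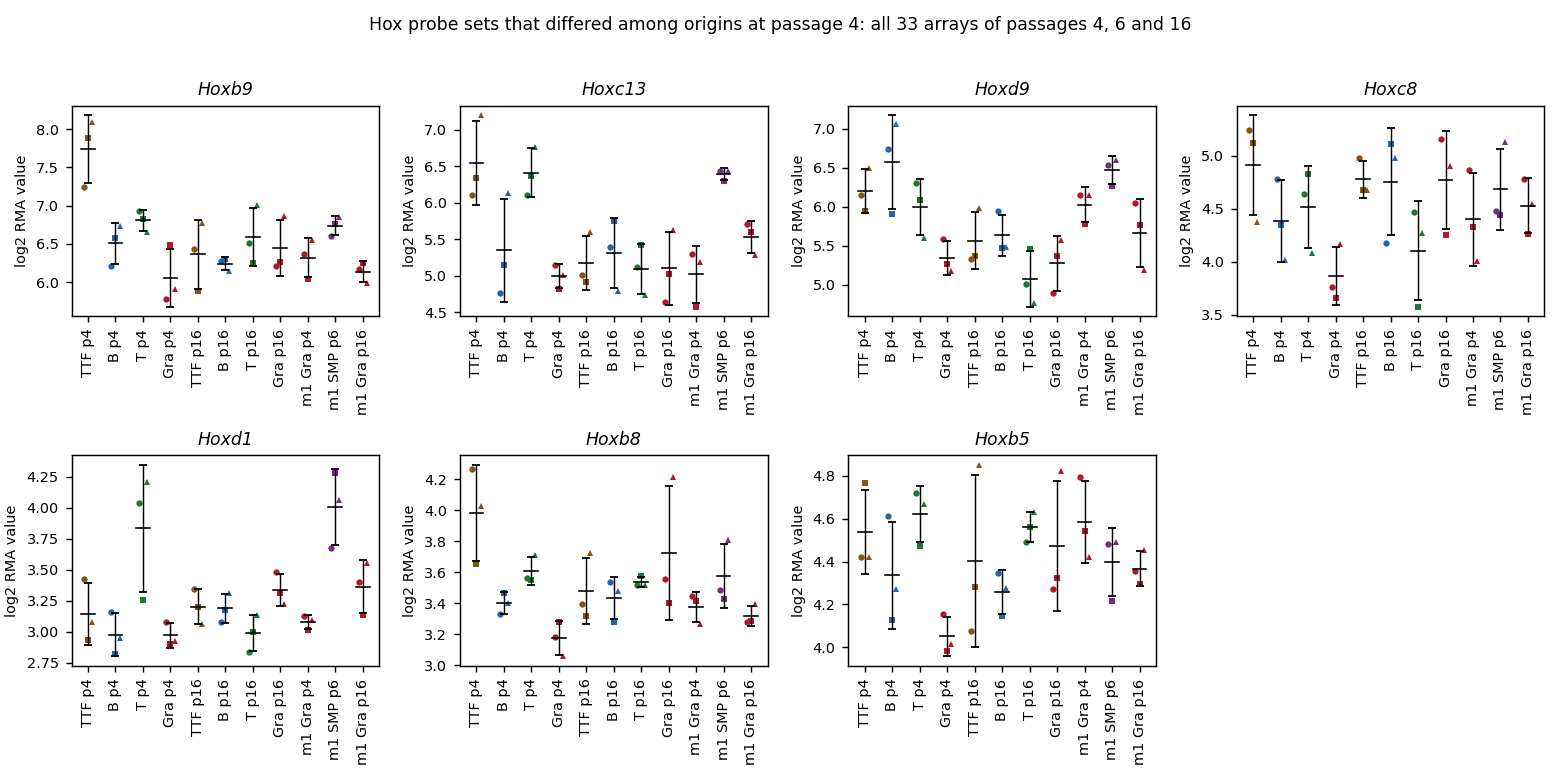
Log2 values of the 7 Hox probe sets that differed among origins at passage 4, in the 33 arrays of passages 4, 6 and 16. Each point is 1 array, its shape gives the clone number (circle 1, square 2, triangle 3), and bars show the mean and SD of the 3 clones of a group; Hoxb9 in TTF lines of passage 4 lies between 7.25 and 8.10, above all other lines of that passage.

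Fibroblast RNA was followed beside these values, since the lines grew on fibroblasts and those from tail tips began as fibroblasts. Of 28 listed markers, among them collagens and Postn, 25 were measured on the 33 arrays. At passage 4 their mean was lowest in B lines (7.0) and TTF lines (7.02), then 7.28 in Gra and 7.76 in T lines. In TTF lines 6 of 25 markers were lower and none higher, Lox by -2.49 (SE 0.36) and Col3a1 by -1.29 (SE 0.25). Any part of fibroblast RNA in the Hoxb9 and Hoxc13 values of these lines was not tested. In T lines, where Hoxc13 and Hoxd1 were high, 11 of 25 were higher and none lower. With this mean as a covariate, the F-test kept all 7 calls and called 9. By origin it then left 5 calls in TTF lines, 8 in Gra lines, 1 in T lines (Hoxd1) and none in B lines. In B lines Hoxd9 had been called. The marker mean varied little within an origin at passage 4, with SDs from 0.055 in B to 0.12 in TTF lines. The fit takes its slope from clones within every group of the 33 arrays, with SDs up to 0.28 in Gra lines of mouse 1 at passage 4. The slope thus rests largely on other groups. The covariate therefore cannot separate origin from fibroblast RNA, whether a call is kept or lost.

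At passage 10, on its own platform, lines from granulocytes had the lowest mean in every Hox probe set that differed among the origins. These lay in all 4 clusters, with Hoxc8 as the only 1 of 8 in the Hoxc cluster. The F-test called 13 of 40 Hox probe sets, or 32.5%, against 25.8% of all probe sets. Of the 13 calls 8 held in all 12 fits without 1 array, while Hoxb5 and Hoxd10 held in 7 (adjusted p up to 0.14 and 0.099), Hoxb1 in 9 (up to 0.066), the probe set of Hoxb8 and Hoxb7 in 10 (up to 0.091) and Hoxd1 in 11 (up to 0.088). In 13 of 13 the Gra lines had the lowest mean, and TTF or T lines had the highest. Set against the mean of the other 3 origins, 14 Hox probe sets were lower in Gra lines, where 15.2% of all probe sets were lower, and 1, Hoxc13, was higher, where 16.6% were, and 31.8% in either direction. The median Gra difference was -0.17 over the 40 Hox probe sets and -0.02 over all.

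The largest difference was in Hoxc8, which read 5.25, 4.57 and 5.20 in the Gra lines, 6.27, 6.06 and 6.13 in B, 6.13, 5.62 and 6.36 in T and 6.53, 7.07 and 6.51 in TTF lines. The order of means was TTF, B, T and Gra, and no Gra line reached any other line. The difference was -1.29 (SE 0.18, a 2.45-fold lower level, adjusted p = 0.00028), and TTF lines were higher by 0.97 (SE 0.18, adjusted p = 0.011).

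Hoxa9, a gene of blood progenitors and of the posterior trunk, was seen by a pair of probe sets that differed. By 1455626_at it read 5.95, 5.01 and 5.21 in Gra lines, 6.26, 6.22 and 6.18 in B, 6.78, 6.37 and 6.50 in T and 6.29, 6.59 and 6.61 in TTF lines, a Gra difference of -1.03 (SE 0.16, adjusted p = 0.00055). By 1421579_at its group means lay within 0.26 of each other and no comparison called it. Hoxa5, known from lung and neck, read 5.90, 5.86 and 5.70 in Gra lines, 6.81, 6.26 and 6.31 in B, 6.71, 6.24 and 6.52 in T and 6.85, 7.11 and 6.83 in TTF lines. Again no Gra line overlapped another origin, with a difference of -0.80 (SE 0.13, adjusted p = 0.00054), and all TTF lines were above all other lines, by 0.67 (SE 0.13, adjusted p = 0.011).

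Of the anterior paralogues 1 to 3, 4 of 7 probe sets were lower in Gra lines, while Hoxa2, Hoxb3 and 1 of the pair for Hoxa3 were not called. Hoxb1 read 4.18, 4.24 and 4.32 there, 5.33, 4.20 and 4.95 in B, 5.47, 4.84 and 5.06 in T and 5.31, 5.20 and 5.38 in TTF lines, a difference of -0.83 (SE 0.19, adjusted p = 0.005) with clone 2 of the B lines among the Gra values. Hoxb2 read 5.75, 5.48 and 5.43 in Gra lines, 6.16, 6.21 and 6.07 in B, 6.71, 6.43 and 6.26 in T and 6.20, 6.44 and 6.44 in TTF lines, with no overlap and a difference of -0.77 (SE 0.10, adjusted p = 0.00018). Hoxa3 by 1427433_s_at read 4.70, 4.61 and 4.77 in Gra lines and 5.03 to 5.28 in the 9 others, a difference of -0.49 (SE 0.07, adjusted p = 0.00026). Its other probe set, 1452421_at, had group means from 4.43 to 4.55. Hoxd1 read 4.09, 4.21 and 3.75 in Gra lines and 4.07 to 4.71 in the others, which overlap, and its difference was -0.50 (SE 0.11, adjusted p = 0.0056).

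In the Hoxd cluster 4 of 9 probe sets were lower in Gra lines, and Hoxd8 and Hoxd9 were without overlap. Hoxd9 read 6.10, 6.04 and 5.96 in Gra lines, 6.78, 6.46 and 6.60 in B, 7.13, 6.95 and 7.03 in T and 6.73, 6.77 and 7.02 in TTF lines, with a difference of -0.80 (SE 0.08, adjusted p = 7e-05). Hoxd8 read 5.41, 5.36 and 5.29 in Gra lines, 5.89, 5.92 and 5.93 in B, 6.02, 6.04 and 6.03 in T and 5.93, 6.03 and 6.15 in TTF lines, with a difference of -0.64 (SE 0.05, adjusted p = 5.3e-05). Hoxd10, which specifies lumbar motor neurons, differed less, with 3.40, 3.48 and 3.56 in Gra lines against an overlapping 3.53 to 3.98 in the others and a difference of -0.24 (SE 0.07, adjusted p = 0.026).

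In the Hoxb cluster, Hoxb6 read 4.05, 4.61 and 4.18 in Gra lines, 4.73, 4.58 and 4.40 in B, 4.79, 4.36 and 4.85 in T and 5.21, 5.13 and 5.44 in TTF lines. It set TTF lines apart more than Gra lines, with a TTF difference of 0.76 (SE 0.13, adjusted p = 0.0092) and a Gra difference of -0.55 (SE 0.13, adjusted p = 0.0072). The probe set shared by Hoxb8 and Hoxb7 read 4.33, 4.61 and 4.31 in Gra lines and 4.70 to 5.28 in the 9 others, a difference of -0.56 (SE 0.12, adjusted p = 0.003). Hoxb5 read 3.57, 3.57 and 3.42 in Gra lines and 3.64 to 4.18 in the others, a difference of -0.41 (SE 0.10, adjusted p = 0.0064). Hoxa10, a gene of the lumbar region and the uterus, was called for Gra lines but not in the F-test, with 3.78, 3.69 and 3.66 against 3.92 to 4.66 and a difference of -0.50 (SE 0.13, adjusted p = 0.0091).

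Hoxc13 went the other way, with 5.76, 6.09 and 6.28 in Gra lines, 5.63, 5.28 and 6.03 in B, 5.54, 5.54 and 5.69 in T and 5.80, 5.71 and 5.58 in TTF lines. The ranges overlapped, and the Gra difference was 0.40 (SE 0.14, adjusted p = 0.044). Its call was lost without any of 9 arrays (adjusted p up to 0.24), and that of Hoxd10 without Gra clone 1 or clone 2 (0.12 and 0.075), while the other 13 Gra calls held in every fit without 1 array.

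By cluster, 4 of 12 Hoxa, 5 of 11 Hoxb, 1 of 8 Hoxc and 4 of 9 Hoxd probe sets were lower in Gra lines at passage 10. By position they were 4 of 7 in paralogues 1 to 3, 6 of 19 in paralogues 4 to 8 and 4 of 14 in paralogues 9 to 13. Probe sets that carry both Hoxd4 and Hoxd3 were placed as Hoxd4. TTF lines were higher in Hoxc8, Hoxb6, Hoxa5, Hoxd10 (0.31, SE 0.07) and Hoxd8 (0.27, SE 0.05), 5 of 40 where 10.4% of all probe sets were called and 4.45% were higher, and lower in none. Without TTF clone 2 only 1 of the 5, Hoxb6, was called, and without T clone 1 there were 8 calls. B and T lines had no called Hox probe set by limma, where 0.0397% and 0.000% of all probe sets were called. At an unadjusted p under 0.05 they had 2 and 8, against 2441 and 3767 of all probe sets. With trended and robust variances T lines had 1 call, and without Gra clone 1 they had 4.

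**Figure D3:**
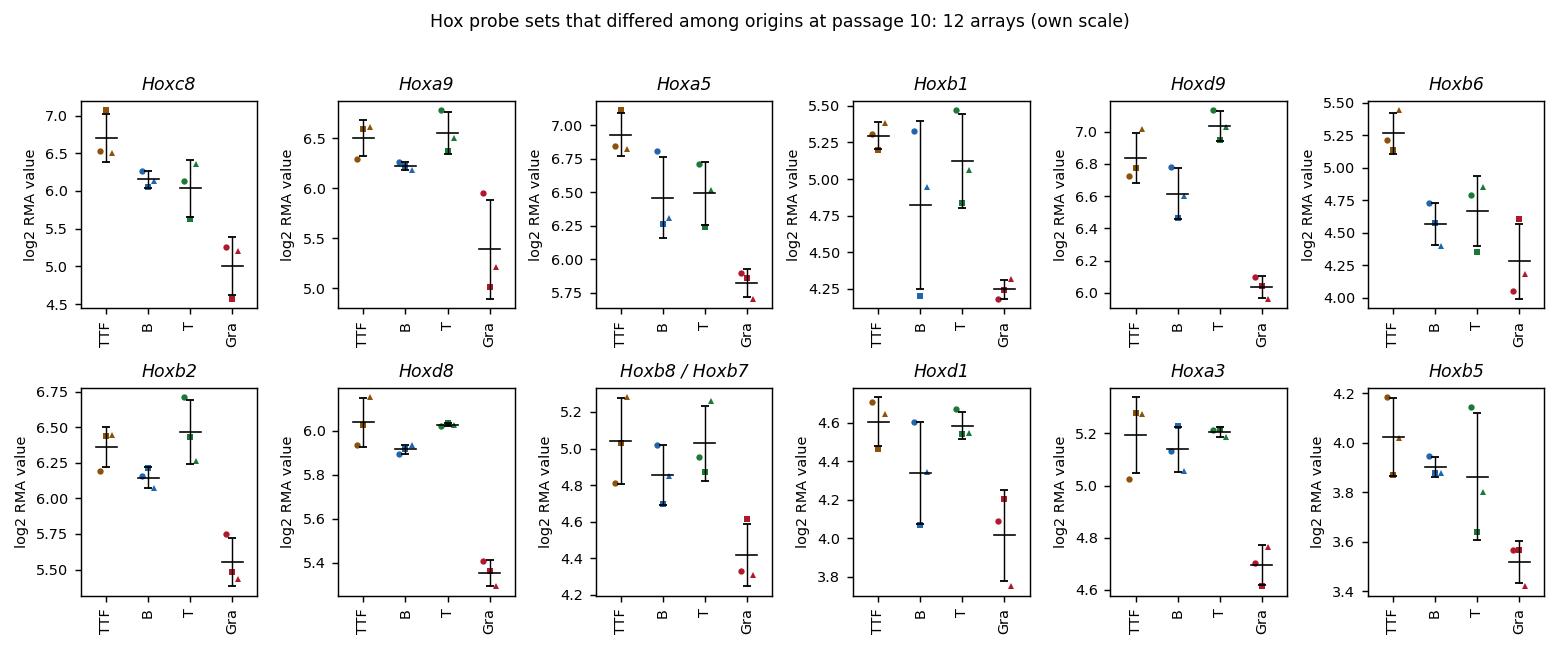
Log2 values of the 12 Hox probe sets with the widest group means among the 13 that differed by origin at passage 10, in 12 arrays of mouse 2 lines. Each point is 1 array, its shape gives the clone number (circle 1, square 2, triangle 3), and bars show the mean and SD of 3 clones; the Gra lines of Hoxd8 lie between 5.29 and 5.41, below every other line.

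Of the 35 probe sets that both tables hold, 6 were lower in Gra lines at passage 4 and 13 at passage 10. Hoxb5, Hoxb8, Hoxc8 and Hoxd9 were on both lists, 4 of the 6 and 4 of the 13. Of all probe sets 11.8% were lower in Gra lines at passage 4 and 15.2% at passage 10. The share lower at both was not counted. The lines of both passages come from the same mouse, so the overlap is not a replication. Hoxc13 was lower in Gra lines at passage 4 and higher at passage 10. Hoxb9 was lower by 0.96 at passage 4, and at passage 10 its Gra lines read 5.21, 5.39 and 5.27 among 5.15 to 5.81 in the others. Hoxa5 was called at passage 10 alone, and at passage 4 its group means lay between 3.03 and 3.27. The platform differs along with the passage, and the difference between passages 4 and 10 was not tested.

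**Figure D4:**
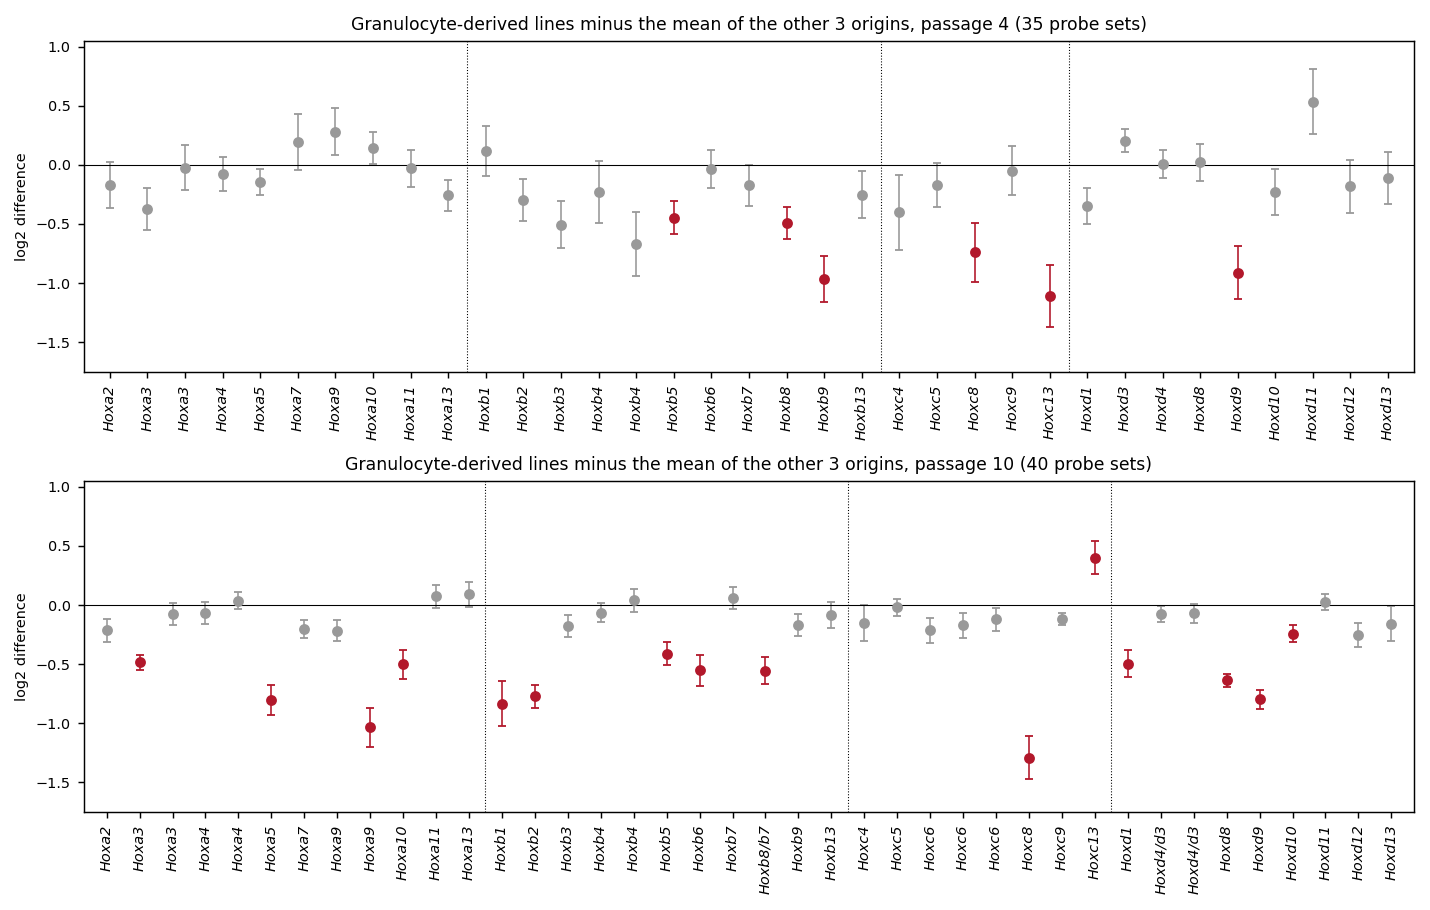
Difference of the Gra lines from the mean of the other 3 origins of mouse 2 (vertical, log2) for each Hox probe set (horizontal), at passage 4 above and passage 10 below, with bars of 1 SE from limma, red points for called probe sets and grey points for the others. Below the line of 0 lie 27 of 35 points at passage 4 and 33 of 40 at passage 10.

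Fibroblast markers moved with the Hox probe sets at passage 10. Of 28 markers 27 were measured, and their mean was 7.99 in Gra lines, 8.42 in B, 8.52 in T and 9.0 in TTF lines, while the Hox means were 4.89, 5.10, 5.18 and 5.25. In Gra lines 20 of 27 markers were lower and 1 was higher, with Cd44 at -1.82 (SE 0.23) and Prrx1 at -1.35 (SE 0.17), and in TTF lines 20 were higher. With the marker mean as a covariate no Hox probe set was called, in the F-test or for any origin, and of all probe sets 28 were called in the F-test and none for Gra lines. The marker mean varied little within an origin (SD 0.02 to 0.22), so that origin and fibroblast RNA cannot be told apart in these 12 arrays. The granulocyte, B cell and T cell lists had ranges of 4.33 to 4.47, 4.86 to 5.11 and 4.86 to 5.14 over the arrays.

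**Figure D5:**
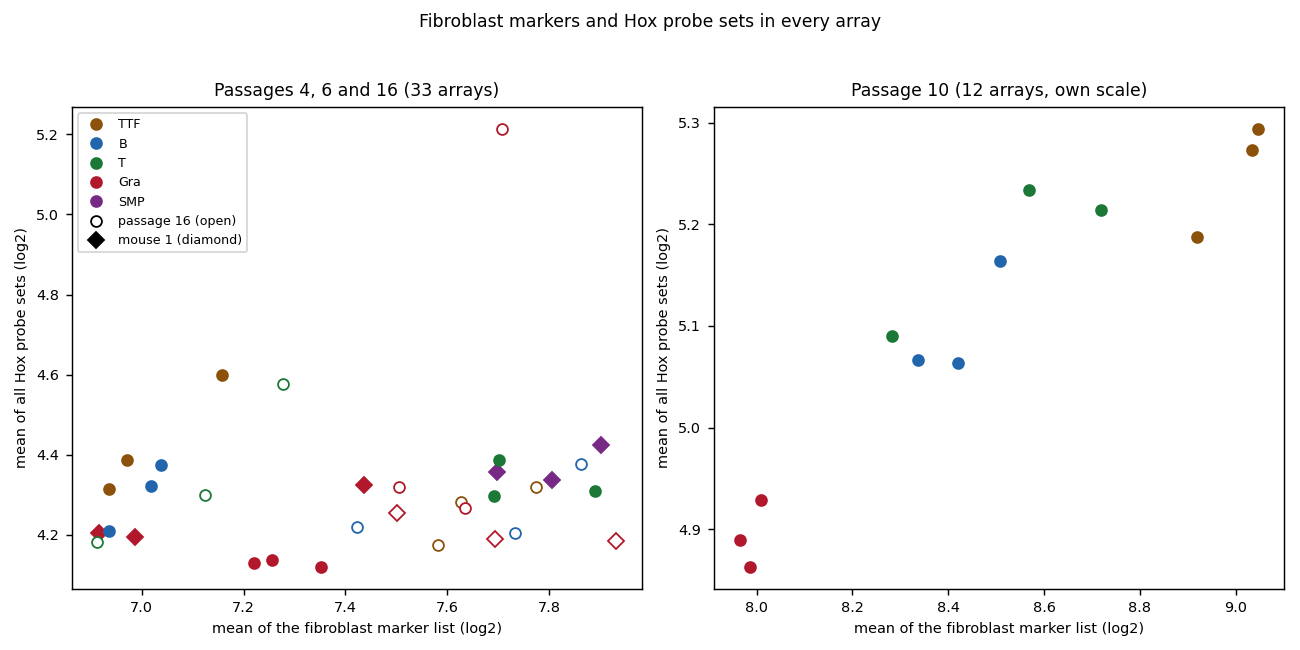
Mean of the fibroblast markers (horizontal, log2) against the mean of all Hox probe sets (vertical, log2), 1 point per array, for passages 4, 6 and 16 on the left and passage 10 on the right. At passage 10 the Gra lines lie lowest on both axes, with group means of 7.99 and 4.89, and TTF lines highest, with 9.0 and 5.25, while on the left the TTF lines of passage 4 have a fibroblast mean of 7.02 and a Hox mean of 4.43.

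Genes known to act on the clusters were read in the same comparison of Gra lines at passage 10, in which 31.8% of all probe sets were called and 15.2% were lower. Of 6 Cdx and ParaHox genes, Cdx2 and Cdx1, direct activators of middle Hox genes, were lower in Gra lines, by -1.39 (SE 0.14, adjusted p = 7.5e-05) and -1.04 (SE 0.13, adjusted p = 0.00014). Of 10 genes of the primitive streak and posterior signals, 4 were lower and 1 higher, with Mixl1 at -1.76 (SE 0.21), Evx1, the neighbour of Hoxa13, at -1.13 (SE 0.23), Eomes at -0.89 (SE 0.06) and Fgf8 at -0.45 (SE 0.16). Of 15 genes of the retinoic acid pathway 5 were lower and 1 higher, with Cyp26a1, which breaks down retinoic acid, at -1.32 (SE 0.12) and the receptor gene Rarg at -0.49 (SE 0.11). The medians of these lists were -0.06, -0.25 and -0.14, against -0.02 over all probe sets.

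Among partners and chromatin regulators, calls went in both directions. Of 10 TALE cofactors, the proteins that bind DNA with Hox factors, Meis2 (-0.76, SE 0.14) and Meis1 (-0.45, SE 0.12) were lower in Gra lines of passage 10 and Pbx4 (0.52, SE 0.11) was higher. Of 17 Trithorax and Polycomb genes 6 were lower and 1 higher, with Bmi1 at -0.61 (SE 0.07), Jarid2 at -0.55 (SE 0.12) and Ezh1 at 0.79 (SE 0.09). Of 12 genes that neighbour the clusters, Calcoco2 was lower (-0.78, SE 0.10) and Hibadh (0.55, SE 0.08) and Nfe2l2 (0.19, SE 0.06) were higher. At passage 4, where 21.5% of all probe sets were called for Gra lines, none of the 6 Cdx and ParaHox genes was. Of the 10 streak and posterior genes 1 was higher, Eomes (1.26, SE 0.31), and 1 lower, Tbx6 (-0.53, SE 0.18). Of 14 retinoic acid genes 2 were higher, among them Rarg (0.82, SE 0.15), and 1 was lower, Dhrs3 (-0.90, SE 0.26). Of 15 Trithorax and Polycomb genes 2 were higher, among them Jarid2 (1.25, SE 0.15), and 1 was lower, Ezh1 (-0.91, SE 0.23). Of 10 TALE cofactors and 13 cluster neighbours, 1 and 2 were higher and 1 of each was lower.

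At passage 16 few probe sets of any kind differed among the origins, 306 of 22690, and the Hox probe sets were no exception. The Gra lines of this test include clone 3, the array that stood apart. The F-test called 1 of 35 Hox probe sets, Hoxd3, where 1.35% of all probe sets were called. Hoxd3, which patterns the neck, read 4.21, 3.80 and 4.23 in Gra lines, 3.84, 3.93 and 3.81 in T, 3.75, 3.53 and 3.72 in TTF and 3.40, 3.63 and 3.46 in B lines (adjusted p = 0.037). Its group means spanned 0.59. In the passage 10 annotation the same probe set, 1421537_at, carries both Hoxd4 and Hoxd3, so it cannot tell these genes apart. The call was lost without any of 8 arrays (up to 0.08), among them Gra clone 3 (0.063), and was absent without the 3 arrays of highest lower quartile.

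Between passages 4 and 16, over the mean of the 4 origins of mouse 2, 3 Hox probe sets fell and 2 rose, where 14.4% of all probe sets fell and 15.0% rose, 29.4% in all. After quantile normalization 3 fell and 1 rose, and without the 3 arrays of highest lower quartile 3 fell and 1 rose, with Hoxb13 lost. Hoxc13 fell by 0.66 (SE 0.16, adjusted p = 0.0032), Hoxd9 fell by 0.64 (SE 0.14, adjusted p = 0.00098) and Hoxb9 fell by 0.37 (SE 0.12, adjusted p = 0.023). Hoxb13 rose by 0.36 (SE 0.12, adjusted p = 0.028) and Hoxd3 rose by 0.23 (SE 0.06, adjusted p = 0.005). The call of Hoxb13 was lost without any of 6 arrays (up to 0.065), among them Gra clone 3 of passage 16 (0.053), and that of Hoxb9 without TTF clone 3 or Gra clone 2 of passage 4 (0.05 and 0.052). The median change was 0.08 for Hox probe sets and 0.05 for all.

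In TTF lines 2 of the 3 genes that were higher there at passage 4 fell by passage 16. Both comparisons use the same TTF arrays of passage 4, which favours a fall in genes picked as high there. The arrays of passage 4 are shared in the same way for the T, B and Gra lines of mouse 2 below. Hoxb9 read 6.43, 5.88 and 6.78 at passage 16 against 7.25, 7.88 and 8.10 at passage 4, with no overlap, and fell by 1.38 (SE 0.24, a 2.60-fold lower level, adjusted p = 0.00038). Hoxc13 read 5.01, 4.91 and 5.60 against 6.11, 6.34 and 7.2 and also fell by 1.38 (SE 0.32, adjusted p = 0.0059). These were the 2 of 35 called in TTF lines, where 10.3% of all probe sets were called and 5.45% fell. The difference of the third gene, Hoxb8, was -0.50 (SE 0.17, adjusted p = 0.055). Without the 3 arrays of highest lower quartile Hoxb8 was called too. With the arrays of the compared groups only, Hoxb9 alone was called, and with the fibroblast marker mean as a covariate again Hoxb9 alone. In the same lines 10 of 25 fibroblast markers rose and 1 fell.

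In T lines 3 Hox probe sets fell and 1 rose, where 16.7% of all were called, 9.59% lower and 7.06% higher. After quantile normalization 3 fell and none rose. Without the 3 arrays of highest lower quartile 3 fell and 1 rose, with Hoxd9 lost and Hoxa3 gained. Hoxc13 read 5.11, 5.43 and 4.73 at passage 16 against 6.10, 6.36 and 6.77 and fell by 1.32 (SE 0.32, adjusted p = 0.005). Hoxd1 read 2.84, 3.0 and 3.13 against 4.04, 3.25 and 4.21 and fell by 0.85 (SE 0.19, adjusted p = 0.0026). Both genes were without overlap between the passages. Hoxd9 read 5.0, 5.46 and 4.76 against 6.31, 6.08 and 5.60 and fell by 0.92 (SE 0.27, adjusted p = 0.02), and Hoxd3 rose by 0.37 (SE 0.12, adjusted p = 0.034). The calls of Hoxd9 and Hoxd3 were lost without any of 4 and 6 arrays (up to 0.1 and 0.099), T clone 3 of passage 16 among them. In these lines 8 of 25 fibroblast markers fell and none rose, and with their mean as a covariate Hoxd1 alone was called. In B lines Hoxd9 fell by 0.94 (SE 0.27, adjusted p = 0.029), from 6.74, 5.90 and 7.07 to 5.94, 5.47 and 5.49, ranges that overlap, the 1 call of 35 where 8.97% of all were called and 3.98% fell, lost without any of 4 arrays (up to 0.17) and kept without the 3 of highest lower quartile.

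In Gra lines of mouse 2, 12 of 35 Hox probe sets rose and none fell, where 34.5% of all were called and 18.3% rose, and the count moved with clone 3 of passage 16. Of the fibroblast markers 8 of 25 rose and 2 fell. Without that array 1 of 35 was called, and without the 3 arrays of highest lower quartile 1 as well, Hoxb13 both times. Fitted on the arrays of the compared groups only, none was called. The count was 7, 4 and 5 without clones 1, 2 and 3 of passage 4, and 16 and 21 without clones 1 and 2 of passage 16. For these fits the share of all probe sets called is not given here.

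Hoxb13, a gene of the tail bud and prostate, read 5.55, 5.50 and 6.37 in Gra lines of passage 16 against 4.79, 4.66 and 4.78 at passage 4. All late lines were above all early ones, and it rose by 1.06 (SE 0.24, adjusted p = 0.002). Hoxc4 read 4.02, 4.43 and 6.59 against 4.33, 4.0 and 3.34, with a change of 1.13 (SE 0.39, adjusted p = 0.027) that was 0.34 (adjusted p = 0.43) without clone 3. Clones 1 and 2 of the late lines were within or just above the early range of Hoxc4.

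Another 10 rose in the fit of all arrays and had a lower change without clone 3. They were Hoxb4 by 1460379_at (0.94, and 0.42 without it), Hoxc8 (0.91 and 0.84), Hoxd12 (0.85 and 0.33), Hoxb6 (0.76 and 0.45), Hoxb3 (0.71 and 0.41), Hoxb1 (0.67 and 0.17), Hoxa2 (0.61 and 0.10), Hoxc5 (0.59 and 0.22), Hoxb8 (0.55 and 0.30) and Hoxd3 (0.39 and 0.31), with adjusted p from 0.0051 to 0.05 in the fit of all arrays and from 0.069 to 0.7 without it. Hoxc8 read 5.15, 4.26 and 4.91 at passage 16 against 3.76, 3.66 and 4.17, so its late lines lay above the early ones whether clone 3 was kept or not. Hoxa2 read 3.15, 3.18 and 4.69 against 2.91, 3.24 and 3.02, with clone 3 alone above the early range. The median change was 0.42 over Hox probe sets and 0.16 over all, and 0.15 and 0.05 without the 3 arrays.

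In Gra lines of mouse 1 the same passages gave 1 call of 35, where 0.886% of all were called and 0.322% fell. Hoxa3 by 1427433_s_at read 4.12, 3.56 and 4.11 at passage 16 against 5.17, 4.62 and 4.79 and fell by 0.93 (SE 0.22, adjusted p = 0.036). The other Hoxa3 probe set read 4.43, 4.79 and 4.78 against 4.77, 4.82 and 5.01. The call was lost without any 1 of the 6 arrays compared (adjusted p from 0.054 to 0.23) and kept without the 3 of highest lower quartile, none of which is among the 6.

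The change from passage 4 to 16 differed among the origins of mouse 2 in 5 of 35 Hox probe sets, where 31.6% of all probe sets passed the same interaction test. They were Hoxb9 (adjusted p = 0.0023), Hoxd1 (0.004), Hoxb8 (0.01), Hoxc13 (0.013) and Hoxb13 (0.018). Hoxb9 changed by -1.38 in TTF, -0.27 in B, -0.22 in T and 0.39 in Gra lines. Hoxc13 changed by -1.38 in TTF and -1.32 in T lines but by -0.04 in B and 0.11 in Gra lines. These 5 calls held without the 3 arrays of highest lower quartile, and there were 9 calls without clone 1 or clone 2 of the Gra lines at passage 16.

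In mouse 1, lines from muscle precursors at passage 6 were higher than Gra lines of passage 4 in 2 of 35 Hox probe sets and lower in none, where 20.6% of all were called, 2280 of 22690 of them higher. Hoxc13 read 6.43, 6.29 and 6.44 in SMP lines against 5.30, 4.58 and 5.18, a difference of 1.37 (SE 0.32, a 2.58-fold higher level, adjusted p = 0.0028). Hoxd1 read 3.67, 4.28 and 4.07 against 3.13, 3.01 and 3.10, a difference of 0.93 (SE 0.19, adjusted p = 0.00078). In both genes all SMP lines were above all Gra lines, and both calls held in every fit without 1 array and without the 3 of highest lower quartile.

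Against Gra lines of passage 16, which shares the SMP arrays with the comparison above, Hoxd9 and Hoxd1 were higher, 2 of 35 where 12.9% of all were called and 6.08% were higher. Hoxd9 read 6.54, 6.27 and 6.60 in SMP lines against 6.04, 5.76 and 5.18 (0.81, SE 0.27, adjusted p = 0.05), and Hoxd1 read 3.40, 3.13 and 3.55 in the late Gra lines (0.64, SE 0.19, adjusted p = 0.023). The count was 6 with the arrays of the compared groups only, 4 without the 3 arrays of highest lower quartile, and 1 with trended and robust variances or with the fibroblast covariate. The Hoxd9 call was lost without any of 21 arrays (up to 0.27) and that of Hoxd1 without any of 4 (up to 0.16). Fibroblast markers were higher in SMP lines than in Gra lines of passage 4 in 11 of 25 and lower in none, with means of 7.80 and 7.11, and with their mean as a covariate Hoxd1 alone was called. The ParaHox gene Gsx2, of the forebrain, was 2.58 higher in SMP lines than in Gra lines of passage 4 (SE 0.23, adjusted p = 4e-08), and in mouse 2 it was 1.85 higher in T lines of passage 4 (SE 0.18, adjusted p = 2.2e-07), the origin in which Hoxd1 was high too.

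Gra lines of passage 4 from both mice differed in no Hox probe set by limma, where 6.46% of all were called. At an unadjusted p under 0.05 there were 3 of 35 and 4219 of all. Fitted on the 2 groups' arrays alone the count was 4, after quantile normalization 2, and without the 3 arrays of highest lower quartile 3, with Hoxb5 and Hoxa3 among them in each of these. Hoxb5 read 4.79, 4.54 and 4.42 in mouse 1 against 4.16, 3.98 and 4.02 in mouse 2, with no overlap. The other probe sets called lower in Gra lines of mouse 2 at passage 4 had higher group means in mouse 1 too. They were 6.03 against 5.34 for Hoxd9, 4.40 against 3.86 for Hoxc8 and 3.38 against 3.17 for Hoxb8. For Hoxb9 they were 6.32 against 6.06, and for Hoxc13 5.02 against 4.99. The lack of calls does not show that the Gra lines of both mice were alike.

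On each platform the remaining members were called in no comparison made on it. On the 33 arrays these were 17 of 35 Hox probe sets, among them Hoxa5, Hoxa7, Hoxa10, Hoxa13, Hoxc9, Hoxd10 and Hoxd13, and their group means spanned 0.30 to 1.15, with a median of 0.53. Hoxd11 had the widest span of these, and its highest array was clone 3 of the Gra lines at passage 16 with 5.89. Of the 17, Hoxa5, Hoxa10, Hoxb2, Hoxd8 and Hoxd10 were called at passage 10. At passage 10, 25 of 40 were called in no comparison of that passage, with spans of 0.044 to 0.39 and a median of 0.21. They included all 3 probe sets of Hoxc6, with group means of 5.35 to 5.78, and the pair shared by Hoxd4 and Hoxd3. Several of the 25 were called on the 33 arrays, among them Hoxb9, Hoxb13 and 1421537_at of that pair, named Hoxd3 there. The antisense transcript Hoxa11os, measured at passage 10 only, read 4.28 to 4.88 and did not pass the F-test (adjusted p = 0.57).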

How the data were processed

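RNA of 45 iPSC cultures was labelled with biotin and hybridized to arrays, per the labels' protocols. The authors deposited log2 values made with RMA, per the submitters' processing notes, whose version is not given in the sources used here, as 2 tables from 2 platforms. The values were used as deposited, and each table was fitted alone with limma 3.58.1 in R 4.3.3: all 22690 probe sets, 1 mean per group, moderated tests, Benjamini-Hochberg adjustment over all probe sets and a threshold of 0.05. No filter on dim probe sets was applied. Errors are standard errors of the fit, with n = 3 clones per group. The members, lists and tests were chosen with earlier results of these data known.

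Symbols came from each platform's probe list. Of the probe sets on 33 arrays 18003 had 1 symbol, 287 had more and 4400 lacked one, and on 12 arrays 20393, 691 and 1606. In the latter, 3 Hox probe sets carried 2 Hox symbols. Probe sets with values in every array were named where they passed a test among origins or passages or between SMP and Gra lines, up to 12 per comparison, and up to 4 called genes of a list. For listed genes the probe set with the highest mean was used.

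The number of arrays limits the precision. Clone numbers were not taken as pairs in the main fits. Deviations of the same clone number at passages 4 and 16 correlated from -0.29 to 0.29 over 15 pairs. Among origins the median was -0.03 at passage 4, 0.03 at passage 10 and 0.24 at passage 16, where 12 of 18 pairs were above 0.1. Alternatives were quantile normalization, a filter on dim probe sets, 1 probe set per gene and arrays of the compared groups only. Others were a block of clone number, or of line for passage, a fibroblast covariate, trended and robust variances, and leaving out each array. Figures were drawn with Python 3.11.15 and matplotlib 3.10.9.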

Additional observations from a re-analysis of the deposited data

Results flagged for a closer look

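The change from passage 4 to 16 differed among the 4 origins of mouse 2 in 5 Hox probe sets, by the interaction test in limma. Hoxb9 (adjusted p = 0.0023) fell in TTF lines by 1.38, and its change in Gra lines was 0.39. Hoxd1 (adjusted p = 0.004) fell in T lines by 0.85, and its change was 0.06 in TTF, 0.21 in B and 0.37 in Gra lines. Hoxb8 (adjusted p = 0.01) rose in Gra lines by 0.55, or 0.30 without clone 3 of passage 16, and its change in TTF lines was -0.50. Hoxc13 (adjusted p = 0.013) fell in TTF lines by 1.38 and in T lines by 1.32. Hoxb13 (adjusted p = 0.018) rose in Gra lines by 1.06, and its change in B lines was -0.34.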

How the results depend on the processing

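Leaving out each array of a comparison gave 5 to 7 Hox calls in the F-test of passage 4, 9 to 15 at passage 10 and 0 to 2 at passage 16. For single origins it gave 3 to 4 (TTF), 0 to 2 (B), 1 to 2 (T) and 4 to 7 (Gra) at passage 4, and 1 to 8, 0 to 0, 0 to 4 and 14 to 16 at passage 10. For passage 16 against 4 it gave 4 to 9 over the mean of the origins, 2 to 3 in TTF, 0 to 1 in B, 2 to 4 in T, 1 to 21 in Gra lines of mouse 2 and 0 to 0 in those of mouse 1. It gave 5 to 9 for the interaction, 2 to 2 and 0 to 1 for SMP against Gra lines of passages 4 and 16, and 0 to 0 for Gra lines of the 2 mice. With the arrays of the compared groups only, counts were 0 in the F-test of passage 16 and for passage in B and in the Gra lines of either mouse, 1 for T at passage 4 and for passage in TTF, 2 for passage in T, 4 between the mice and 6 for SMP against late Gra lines. With the fibroblast covariate they were 0 for B at passage 4, for Gra, TTF and all origins at passage 10, for origins at passage 16 and for passage in B and in Gra of mouse 1. They were 1 for T at passage 4, for SMP against either Gra group and for passage in TTF, T and Gra of mouse 2, 2 between the mice, 3 for the mean passage change, 5 for TTF at passage 4 and 9 for the interaction. At passage 10 some estimates changed sign with the same covariate, each smaller in size than its SE. In TTF lines they were Hoxa5 (-0.072, SE 0.33), Hoxb6 (-0.059, SE 0.34) and Hoxc8 (-0.115, SE 0.47). In Gra lines they were Hoxb6 (0.23, SE 0.33), the probe set of Hoxb8 and Hoxb7 (0.19, SE 0.27) and Hoxb1 (0.056, SE 0.52). These values do not show a reversed difference, and the cause was not tested. The filter on dim probe sets left 1 Hox probe set per table, so counts were 0 or 1. Quantile normalization gave 0 for origins at passage 16, 2 between the mice and 5 for passage in Gra of mouse 2. One probe set per gene gave 0 for passage in Gra of mouse 1, and trended and robust variances gave 1 for T at passage 10 and 1 for SMP against late Gra lines. Without the 3 arrays of highest lower quartile counts were 0 for origins at passage 16, 1 for passage in Gra of mouse 2, 10 for Gra, 2 for B and 5 for T at passage 4, 3 between the mice and 4 for SMP against late Gra lines. A block of clone number gave 7 calls among origins at passage 4, and 14 among origins and 15 for Gra at passage 10. For passage and the interaction the block was the line, taking the same clone number of an origin and mouse as 1 line. It gave 13 calls for passage in Gra of mouse 2 and 3 for passage in T lines. Neither block moved a count by over 1.5 times. The counts of these alternatives are given without the share of all probe sets called in the same fit. Most Hox probe sets lay below the median signal, which limits what can be measured.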
